A study of Mus musculus with 4 samples.

Results

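The immediate early genes described here are Fos, Fosb, Jun, Junb, Egr1, Egr2, Ier2, Nr4a1, Dusp1 and Btg2, and they were taken by their gene names in the scanner files of a mouse kidney expression array. These 10 genes, of 37074 on the array, had 15 probes, of which 11 were well above background on all 4 arrays, 13 on 1 or more and 2 on 0 arrays. Each gene is represented by its brightest probe unless another probe is named, and for 9 of the 10 genes that probe was above background on all 4 arrays. The exception was Egr2, which was dim on both ZT14 arrays.

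Kidney RNA of ICR mice, an outbred strain, was measured in 4 groups. They were vancomycin injected at zeitgeber time 14 (ZT14), saline at ZT14, vancomycin at ZT2 and saline at ZT2, where zeitgeber time counts hours from lights on, so that ZT2 lies in the light phase and ZT14 in the dark phase. Vancomycin is a glycopeptide antibiotic whose high exposure is known to harm renal tubules, and saline is the control injection. All kidneys were collected 1 day after the injection, and the labels name no genetic change in any group. Each group had 1 array, and the number of mice behind an array is not stated in the labels, so differences between 2 arrays have no replicate check. Dose, age and sex are not given in the sources used here. The ZT14 arrays shared a slide and the ZT2 arrays shared another, so the slide cannot be told apart from injection time. With collection 1 day after each injection, the time of day at collection cannot be told apart from injection time either. The vancomycin arrays sat at 1 slide position and the saline arrays at another, so position cannot be told apart from treatment.

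Immediate early genes are transcribed within minutes of a stimulus, from transcription factors already present in the cell, and most of their mRNAs are unstable. Serum response factor acts at CArG boxes and CREB at cyclic AMP response elements (CRE) in their promoters. Most members encode transcription factors that drive the following wave of genes, while Dusp1 and Btg2 encode proteins that restrain signalling and growth. In the kidney these genes are known to be induced by injury, ischaemia and growth factors.

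Promoter windows from the RefSeq table of the GRCm38.p6 assembly, 250 bases before to 50 after each gene start, were matched for 8 of the 10 members. Stretches from 4 of them are shown because they hold the elements through which these genes are known to be switched on. Egr2, Dusp1 and Btg2 were taken by the rule that the window holds a CArG box or a full CRE (TGACGTCA), and Fos was added after its values were seen. Capitals mark the match, with 45 bases on either side, and each sequence runs 5′ to 3′ on the gene's strand.
Egr2, chr10:67537752-67537851, plus strand, CArG box: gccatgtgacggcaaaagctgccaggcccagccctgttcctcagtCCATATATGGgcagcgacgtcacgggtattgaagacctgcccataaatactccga
Dusp1, chr17:26508563-26508660, minus strand, full CRE: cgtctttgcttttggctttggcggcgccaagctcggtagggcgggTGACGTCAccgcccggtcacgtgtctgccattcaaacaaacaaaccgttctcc
Btg2, chr1:134079269-134079366, minus strand, full CRE: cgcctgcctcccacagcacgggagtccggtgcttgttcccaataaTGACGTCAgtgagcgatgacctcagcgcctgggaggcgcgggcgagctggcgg
Fos, chr12:85473779-85473873, plus strand, CRE core TGACG: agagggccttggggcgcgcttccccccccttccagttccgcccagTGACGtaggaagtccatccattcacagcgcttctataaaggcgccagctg

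The match began 143 bases before the gene start in Dusp1, 166 in Btg2 and 66 in Fos. Egr2 had 5 windows with different starts, and the match began 72 bases before the start of the window shown. The same box lay 73 and 133 bases before other starts. Another Egr2 window held a different box (CCTTTTTTGG), and a further window held none. The annotated Egr2 gene begins at chr10:67534469, upstream of the stretch shown. Both strands were searched over 32851 windows of 300 bases each. A CArG box was in 1.63% of all windows and a full CRE in 1.79%. The CRE core TGACG, which is also part of every full CRE, was in 20.8%. Nr4a1 held 4 copies of the CRE core and Fosb, Junb and Fos also held it, so it is a frequent match and a description of the window only.

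On the ZT14 arrays, vancomycin kidneys had higher Fos and Nr4a1 than saline kidneys, by 2-fold or more, and higher Jun by less than 2-fold. Dusp1, the phosphatase that switches off MAP kinases, was lower by less than 2-fold. On the ZT2 arrays, Fos was lower with vancomycin, Egr2 was lower by 2-fold or more, and Jun was again higher. Jun was the member whose difference was over 0.5 on the log2 scale in the same direction at both injection times. The members did not move as a block.

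Values are processed signals, which are background-subtracted intensities, each with the error that the scanner's software attaches to that spot. Differences are on the log2 scale after each array's signals were centred on their 75th percentile, because the arrays differed in overall brightness. That percentile was 651.1 with vancomycin and 678.1 with saline at ZT14, against 490.8 with vancomycin and 547.7 with saline at ZT2. The share of spots above background was between 60.6% and 64.7%, and 0 spots were saturated. The error of a difference is carried over from the spots and does not cover the spread between mice. It is the software's own estimate, which was 10% of the signal for bright probes such as that of Jun. Repeated spots within an array, 10 for each of 300 probes, had a median SD of 0.041 to 0.049 on the log2 scale. That spread gives 0.069 for a difference, beside 0.20 from the software for Jun.

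Among the AP-1 subunits, Fos encodes the partner that needs a Jun protein to bind DNA. Its signal at ZT14 was 47.7 ± 5.66 with vancomycin and 16.2 ± 3.04 with saline. At ZT2 it was 20.8 ± 3.22 with vancomycin and 40.2 ± 4.66 with saline. Vancomycin at ZT14 and saline at ZT2 were thus the high arrays, and the other two were low. The difference between vancomycin and saline was 1.61 ± 0.32 at ZT14, a 3.06-fold higher value, and -0.79 ± 0.28 at ZT2, a 1.73-fold lower value. The lowest signal called above background on the 4 arrays was between 10.5 and 13.5. Normexp background correction with an offset, which compresses dim signals, gave 0.58 at ZT14 and -0.16 at ZT2, so the direction held while the 2-fold size at ZT14 did not. Among genes within 0.5 log2 units of Fos in signal, 3.52% were 2-fold or more higher with vancomycin at ZT14.

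Fosb, a close relative of Fos, had 41.4 with vancomycin and 34.3 with saline at ZT14, and 26.2 with vancomycin and 33.2 with saline at ZT2. Its differences, 0.33 ± 0.26 at ZT14 and -0.18 ± 0.28 at ZT2, had the signs of those of Fos but were close to the scanner error. The sign at ZT2 turned to 0.05 under normexp correction. A further Fosb probe was not well above background on any of the 4 arrays.

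Jun encodes the c-Jun subunit, which pairs with itself or with Fos proteins and is known to be raised by stress kinases. At ZT14 its signal was 5529 with vancomycin and 3350 with saline, and at ZT2 it was 4790 with vancomycin and 3384 with saline. Both vancomycin arrays were above both saline arrays. The difference was 0.78 ± 0.20 at ZT14, or 1.72-fold, and 0.66 ± 0.20 at ZT2, or 1.58-fold. Over the settings tried it stayed between 0.78 and 0.81 at ZT14 and between 0.66 and 0.70 at ZT2. Jun has a single probe, above background on every array, so the probe filters and the mean over probes could not change these values. The central 90% of all genes ran from -0.74 to 0.63 at ZT14 and from -0.87 to 0.69 at ZT2, so the Jun difference was outside that span at ZT14 and inside it at ZT2.

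Junb encodes a subunit that can oppose c-Jun at some promoters. It had 2566 with vancomycin and 3480 with saline at ZT14, and 2549 with vancomycin and 2581 with saline at ZT2. In signal the saline ZT14 array was the high one, but that array was also the brightest. After centring, the log2 values were 1.98 with vancomycin and 2.36 with saline at ZT14, and 2.38 with vancomycin and 2.24 with saline at ZT2. The vancomycin ZT14 array was then the low one. The difference was -0.38 ± 0.20 at ZT14 and 0.14 ± 0.20 at ZT2.

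The zinc finger factors Egr1 and Egr2 bind GC-rich sites and are known to be driven through serum response factor. Egr1 had 87.3 with vancomycin and 93.0 with saline at ZT14, and 52.6 with vancomycin and 80.9 with saline at ZT2. The vancomycin ZT2 array was the low one, with a difference of -0.46 ± 0.22 at ZT2 and -0.03 ± 0.22 at ZT14. Egr2, whose CArG box is shown above, had 11.8 with vancomycin and 12.7 with saline at ZT14, both not well above background, so it has no difference there. At ZT2 Egr2 had 14.7 with vancomycin and 34.1 with saline, a difference of -1.06 ± 0.34 or 2.08-fold lower. Under normexp correction that difference was -0.21. Saline at ZT2 was the high array for Egr2, and the vancomycin value lay just above the background limit of its array.

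Nr4a1 encodes the orphan nuclear receptor NUR77, which needs no ligand to act. Its signal was 854 with vancomycin and 441 with saline at ZT14, and 372 with vancomycin and 460 with saline at ZT2. The vancomycin ZT14 array stood above the other 3. The difference was 1.01 ± 0.20 at ZT14, or 2.02-fold higher, and -0.15 ± 0.20 at ZT2. At ZT14 it lay between 0.94 and 1.04 over the settings tried, so it sat on the 2-fold limit and fell under it with normexp correction.

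Ier2 encodes a small nuclear protein of the early response. It had 858 with vancomycin and 892 with saline at ZT14, and 454 with vancomycin and 424 with saline at ZT2. Its 2 ZT14 arrays were above its 2 ZT2 arrays, and the vancomycin difference was 0.00 ± 0.20 at ZT14 and 0.26 ± 0.20 at ZT2.

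Dusp1 encodes a nuclear phosphatase that inactivates p38, JNK and ERK kinases. It had 1900 with vancomycin and 3423 with saline at ZT14, and 1976 with vancomycin and 1937 with saline at ZT2. The saline ZT14 array was the high one, also after centring. The difference was -0.79 ± 0.20 at ZT14, or 1.73-fold lower, and 0.19 ± 0.20 at ZT2. Btg2 encodes an antiproliferative protein that p53 is known to induce. Its brightest probe had 360 with vancomycin and 351 with saline at ZT14, and 454 with vancomycin and 486 with saline at ZT2, so it differed little by treatment at either time, by 0.10 ± 0.20 and 0.06 ± 0.20.

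**Figure D1:**
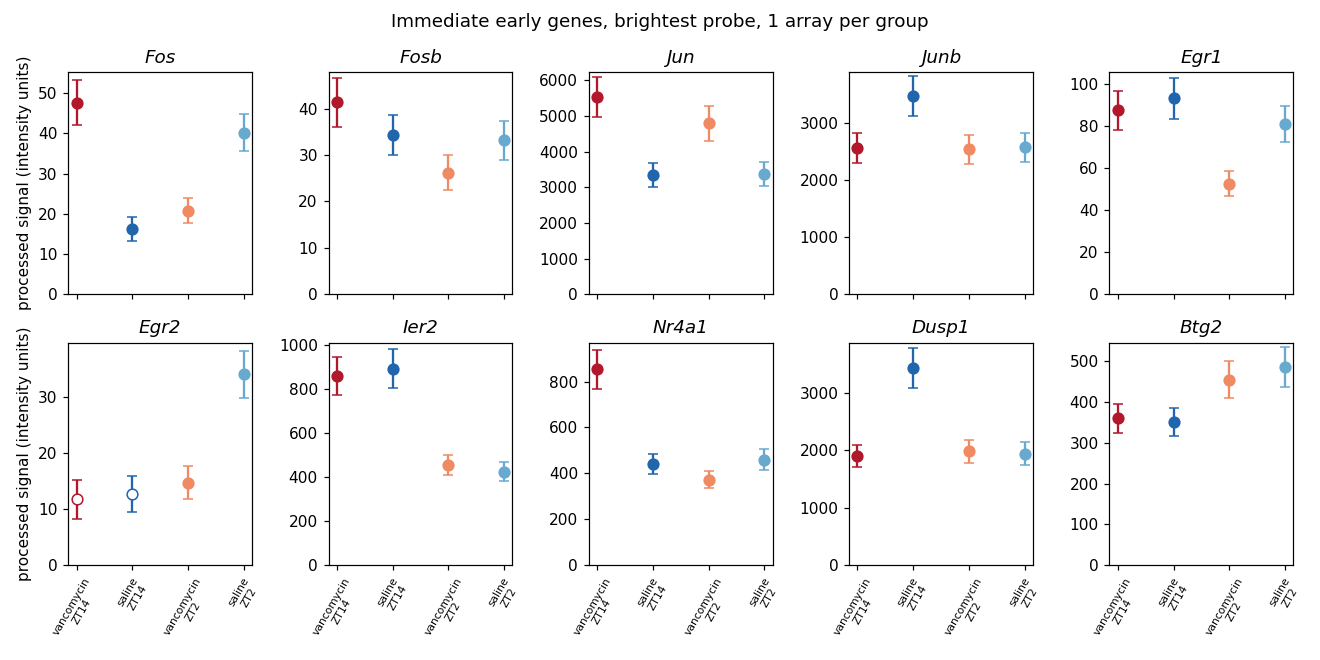
Processed signal in intensity units (linear axis from 0) of the brightest probe of each of the 10 genes on the 4 arrays, 1 array per group. Bars are the scanner software's error and open circles are probes not well above background. Signals are not centred. Jun is higher on both vancomycin arrays, Nr4a1 is high on the vancomycin ZT14 array, and Dusp1 is high on the saline ZT14 array. Junb is highest on the saline ZT14 array before centring only.

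Counted together, 2 of 9 members with a value, Fos and Nr4a1, were 2-fold or more higher with vancomycin at ZT14, and 0 were lower by as much. Over all genes measured, 1.62% were higher by that size at ZT14 and 2.88% were lower, or 4.5% either way. At ZT2, 0 of 10 members were 2-fold or more higher and 1 was lower, Egr2, where 1.98% of all genes were higher and 3.89% lower, or 5.86% either way. The median difference of the members was 0.10 at ZT14 and -0.04 at ZT2, beside 0.01 and -0.00 over all genes. At ZT14, 6 members were above 0 and 3 below, and at ZT2, 5 were above and 5 below. The 2-fold calls were thus on single members, while the middle of the group lay near that of all genes. Among genes within 0.5 log2 units in signal, 3.52% for Fos and 1.13% for Nr4a1 were 2-fold or more higher at ZT14. For Egr2, 7.34% of such genes were 2-fold or more lower at ZT2. Under normexp correction 0 members passed 2-fold with vancomycin at either time.

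**Figure D2:**
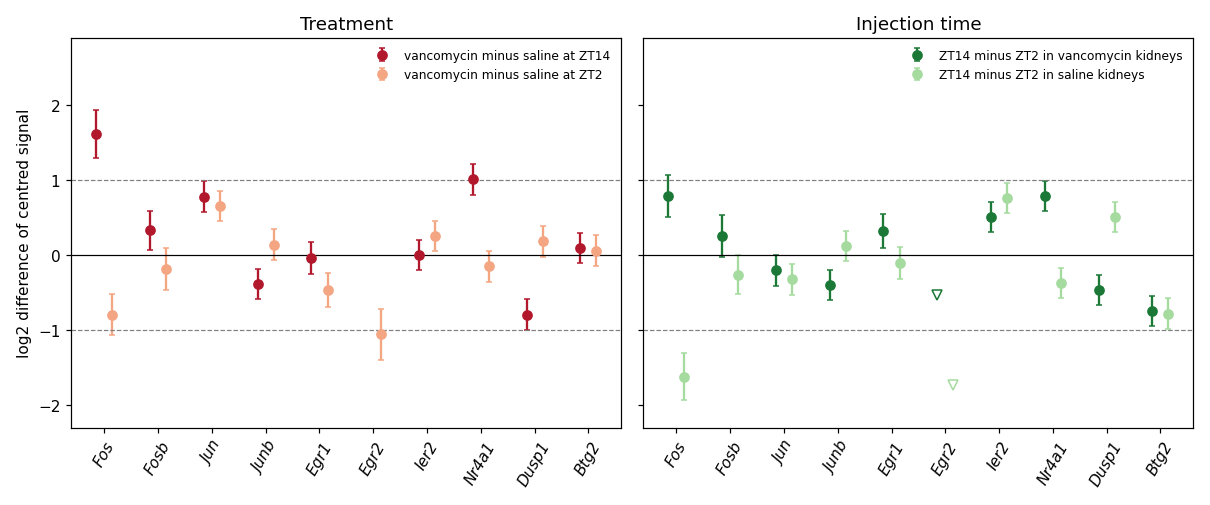
Log2 differences of centred signal for each member, with treatment on the left and injection time on the right. Bars are the scanner error carried over to the difference, and dashed lines mark 2-fold. Triangles are Egr2, whose ZT14 value was not well above background, a bound with vancomycin and a plain difference with saline. Fos at ZT14 stands at 1.61 and at ZT2 at -0.79, while Jun is above 0 at both times.

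With treatment and injection time as additive terms over the 4 arrays, limma gave 0 members an adjusted p under 0.05 for vancomycin, and 0% of all 24638 genes. Jun was the member with an unadjusted p under 0.05, with a mean change of 0.72 ± 0.14 (SE, n = 2 arrays per treatment), higher in 2 of 2 pairs, and limma's p of 0.016 became 0.52 after adjustment over all genes. At an unadjusted p under 0.05 limma called 8.55% of all genes, so 1 of 10 members is near the background. A vancomycin effect that differs between injection times goes into the error of this fit, which has 1 residual degree of freedom. The SEs and p-values rest on that 1 degree of freedom and on a variance pooled over all genes, with 1.86 prior degrees of freedom. They do not measure a spread between replicates, as each group had 1 array.

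Between injection times, the brightest Btg2 probe was lower at ZT14 than at ZT2 and Ier2 was higher, each under both treatments. The other Btg2 probe, described below, was higher at ZT14 with saline. Fos and Nr4a1 took opposite signs under vancomycin and saline. The median of all genes was itself 0.05 in both comparisons. It moved to -0.07 with vancomycin and -0.06 with saline when arrays were centred on the median. The differences of injection time in this paragraph are therefore given after subtracting the median over all genes. On that scale Btg2 was -0.79 with vancomycin and -0.83 with saline, and Ier2 was 0.46 with vancomycin and 0.71 with saline. Fos was 0.74 with vancomycin and -1.67 with saline, and Nr4a1 was 0.75 with vancomycin and -0.42 with saline. Dusp1 and Junb had the reverse order, with -0.51 and -0.44 with vancomycin and 0.46 and 0.07 with saline. Jun was at -0.25 with vancomycin and -0.37 with saline. Egr1 was at 0.28 with vancomycin and -0.16 with saline, and Fosb at 0.21 with vancomycin and -0.31 with saline. Egr2, dim at ZT14, was at -0.57 or lower with vancomycin and at -1.79 with saline. The saline value is no bound, because the dim ZT14 signal of 12.7 was above the 11.3 that would have replaced it. Over 4 scalings Btg2 stayed between -0.79 and -0.72 with vancomycin and between -0.83 and -0.77 with saline.

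Before subtracting the median, 0 of 10 members differed by 2-fold or more between ZT14 and ZT2 with vancomycin, where 9.44% of all genes were higher and 3.26% lower. With saline, 0 of 10 were higher and 2 were lower, Fos and Egr2, where 8.4% of all genes were higher and 3.47% lower. Of the genes past 2-fold, 74.3% were higher at ZT14 with vancomycin and 70.7% with saline, and centring on the median moved these shares to 62.8% and 60.4%. The additive limma fit gave 0 members and 0% of all genes an adjusted p under 0.05 for injection time. Its unadjusted p was under 0.05 for 3 members, Btg2, Ier2 and Egr2, and for 27.2% of all genes. The brightest Btg2 probe changed by -0.76 ± 0.14 (SE, n = 2 arrays per time), lower in 2 of 2 pairs, with a limma p of 0.0127 and an adjusted p of 0.112. Under normexp correction Btg2 was among 3008 genes that passed.

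Probes of the same gene did not always show the same pattern. Btg2 had 2 probes above background on all 4 arrays, both on the minus strand of chromosome 1 in mm9, the build named in the files. They lay 1734 bases apart, at chr1:135972094-135972153 for the brightest and chr1:135973828-135973887 for the other. Both match the transcript NM_007570, from bases 2371 and 637. Their opening 30 bases are shown to tell them apart.
Btg2 brightest probe: ttaaatcttcaattctttactgtccttgtt
Btg2 other probe: ccgtatacctcaacctggggaactgtattt

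The other Btg2 probe had 209 with vancomycin and 404 with saline at ZT14, and 268 with vancomycin and 144 with saline at ZT2. Saline was thus the high array at ZT14 and the low array at ZT2, which the brightest probe did not show. Its vancomycin difference was -0.89 at ZT14 and 1.05 at ZT2, against 0.10 and 0.06 for the brightest probe. Before subtracting the median of all genes, its ZT14 minus ZT2 difference was 1.18 with saline, against -0.78 for the brightest probe. The sign of the Btg2 time difference in saline kidneys thus depends on the probe. With vancomycin the other probe gave -0.76 and the brightest -0.74, also before subtracting that median.

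Junb had a dimmer probe with 16.6 for vancomycin and 28.9 for saline at ZT14, and 25.4 for vancomycin and 30.4 for saline at ZT2. Its difference of -0.74 at ZT14 had the sign of the brightest probe, and its difference of -0.10 at ZT2 did not. A further Junb probe was not well above background on any of the 4 arrays. Ier2 had another probe, on the transcript AK032692 and 1588 bases from the brightest, which is on NM_010499. That distance is longer than the annotated Ier2 gene, chr8:84661331-84662852 in GRCm38.p6, so the annotated gene cannot hold both probes. The AK032692 probe had 24.7 on the saline ZT14 array and 14.5 on the saline ZT2 array. On both vancomycin arrays that probe was not well above background, which gives a value at least 1.75-fold lower with vancomycin at ZT14 and at least 1.17-fold lower at ZT2, where the brightest probe gave 0.00 and 0.26 on the log2 scale.

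**Figure D3:**
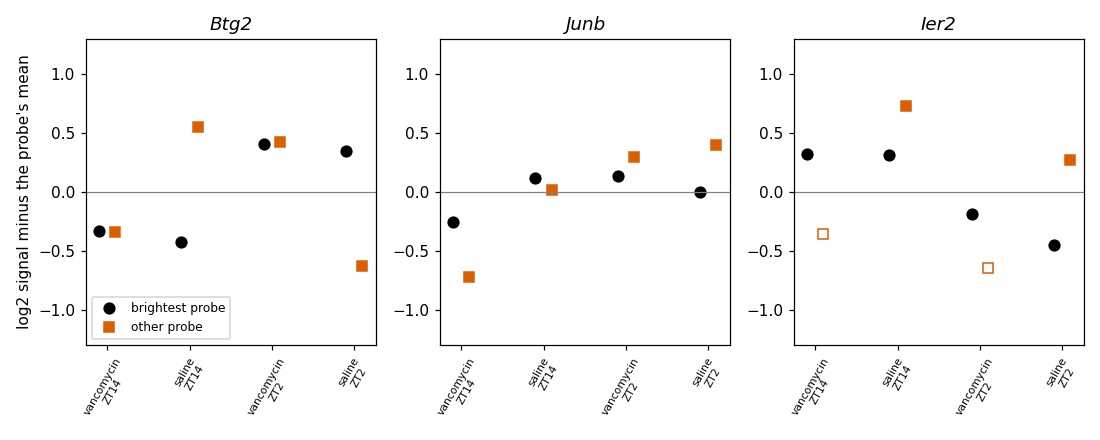
Centred log2 signal of each probe minus its own mean over the 4 arrays, for Btg2, Junb and Ier2. Circles are the brightest probe, squares the other probe, and open symbols are not well above background. The Btg2 probes part on both saline arrays and lie together on both vancomycin arrays.

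Relatives of the members were measured for 16 of 19 genes of a list of AP-1, EGR, NR4A and BTG family genes. At ZT14, 0 of 16 were 2-fold or more higher with vancomycin and 0 lower, and at ZT2, 1 was higher and 0 lower, with medians of 0.09 at ZT14 and 0.02 at ZT2. Atf3, a stress-induced partner of AP-1, had 106.7 with vancomycin and 67.9 with saline at ZT14, a difference of 0.71. At ZT2 Atf3 had 116 with vancomycin and 59.7 with saline, a difference of 1.11. Like Jun, Atf3 was higher on both vancomycin arrays. Tob2, an antiproliferative relative of Btg2, differed by 0.75 at ZT14. Nr4a2, a nuclear receptor of the same family as Nr4a1, differed by -0.70 at ZT14, opposite in sign to Nr4a1.

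All 32 genes of a list of other primary response genes were measured. At ZT14, 1 of 30 with a value was 2-fold or more higher with vancomycin and 0 lower, and at ZT2, 0 of 32 were higher and 1 lower, with medians of 0.05 and -0.05. Cyr61, a matricellular protein gene and YAP target, had 1345 with vancomycin and 546 with saline at ZT14, a difference of 1.36. At ZT2 Cyr61 had 1648 with vancomycin and 1147 with saline, a difference of 0.68. Klf10 was higher by 0.87 at ZT14, and Plk2, a polo-like kinase gene, differed by -1.08 at ZT2, with 59.6 for vancomycin and 140 for saline. Myc was higher at ZT14 than at ZT2 by 1.25 with vancomycin and by 0.78 with saline before subtracting the median of all genes.

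Feedback inhibitors of MAP kinase and EGR signalling were measured for 14 of 16 genes, and 0 were 2-fold or more different with vancomycin at either time, with medians of -0.06 at ZT14 and 0.20 at ZT2. At ZT14, 6 of the 14 were above 0 and 8 below. The largest difference there was that of Dusp5, a nuclear ERK phosphatase gene, at -0.63, beside -0.79 for Dusp1. Errfi1, an inhibitor of the EGF receptor, differed by 0.56 at ZT2 and by -0.42 at ZT14. Spry4, an inhibitor of receptor tyrosine kinase signalling, had 94.2 at ZT14 and 19.2 at ZT2 with vancomycin, a difference of 1.89. With saline it had 68.4 at ZT14 and 27.8 at ZT2, a difference of 0.99. Both differences are before subtracting the median of all genes.

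The kinases and transcription factors that act upstream of the members were all measured, 24 of 24, and 0 were 2-fold or more different with vancomycin at either time. Their medians were 0.05 at ZT14 and -0.04 at ZT2. Elk3, a ternary complex factor that acts with serum response factor, differed by -0.60 at ZT14, and Srf itself by 0.31. These are mRNA levels, and the phosphorylation through which these proteins act was not measured. Heat shock genes, a list of stress genes outside this pathway, were measured for 12 of 12, and 2 were 2-fold or more higher with vancomycin at both times. Hspa1a, an inducible HSP70 gene, differed by 2.11 at ZT14 and 2.15 at ZT2, and Hspa1b by 1.71 and 1.68, so unlike Fos they took the same sign at both times.

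**Figure D4:**
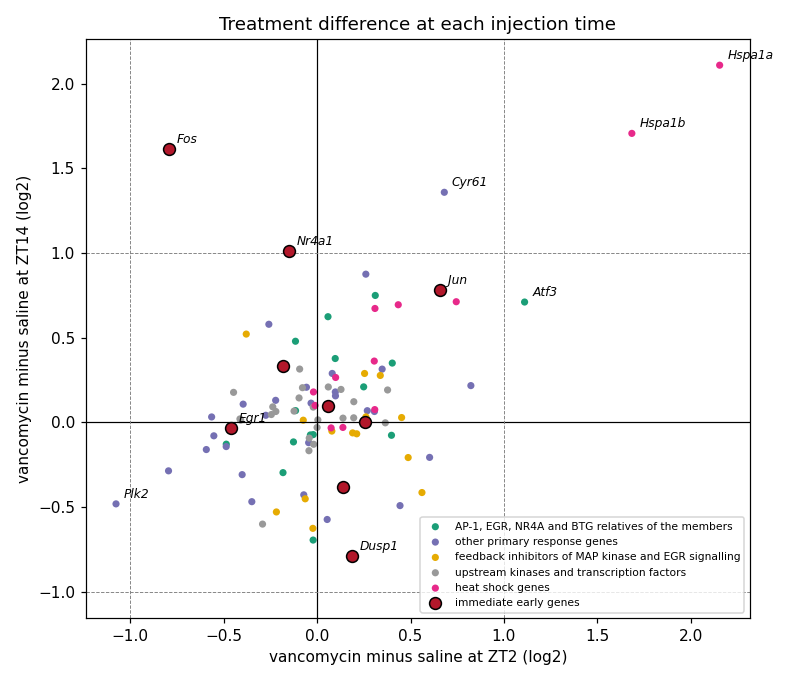
Vancomycin minus saline in log2 units at ZT2 (horizontal axis) and ZT14 (vertical axis) for the immediate early genes, as large circles, and 5 gene lists, as small points; genes with a bound at either time are left out. Fos lies at -0.79 and 1.61, Jun at 0.66 and 0.78, and Hspa1a at 2.15 and 2.11.

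The members' mean profile was nearly flat. Over the 9 members above background on all 4 arrays, the centred mean was 0.11 with vancomycin and -0.18 with saline at ZT14, and 0.02 with vancomycin and 0.05 with saline at ZT2. By Euclidean distance over the 4 arrays, the nearest of 20750 candidate genes were Thoc7, Kpnb1, Aplp1, Dyrk2 and Med8, at distances of 0.017 to 0.034. Single members ranged more widely over the 4 arrays than that mean, by 1.62 for Fos, 1.01 for Nr4a1 and 0.98 for Jun. The median range over 20759 genes was 0.59, and 0.33 was the range of Fosb.

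Markers of other cells also differed between the arrays. All 15 kidney segment markers were above background on all 4 arrays. Adrenal markers, measured for 10 of 12, summed to 921 with vancomycin and 497 with saline at ZT14, and to 3750 with vancomycin and 373 with saline at ZT2, with 10 of 10 above background on both vancomycin arrays and 5 of 10 on both saline arrays. Markers of endothelium and smooth muscle, 11 of 11 measured, summed to 25725 with vancomycin and 28635 with saline at ZT14, and to 15590 with vancomycin and 42217 with saline at ZT2. Of these, 9 of 11 were lower with vancomycin at ZT14 and 11 of 11 at ZT2. Fat cell markers, 11 of 11 measured, summed to 7541 with vancomycin and 6749 with saline at ZT14, and to 10406 with vancomycin and 23979 with saline at ZT2. Erythroid markers, 5 of 8 measured, summed to 27896 with vancomycin and 23491 with saline at ZT14, and to 5467 with vancomycin and 18550 with saline at ZT2. Single markers of both lists went both ways at ZT2 after centring. Of the fat markers, 7 were lower with vancomycin and 4 higher, 5 and 2 of them by 2-fold or more. Of the erythroid markers, 3 were lower and 2 higher, 3 and 1 of them by 2-fold or more. At ZT14, 5 of 8 fat and 5 of 5 erythroid markers with a value were higher. Leukocyte markers, 15 of 16 measured, summed to 32651 with vancomycin and 34930 with saline at ZT14, and to 18596 with vancomycin and 21095 with saline at ZT2. Taken marker by marker after centring, 12 of 14 leukocyte markers were lower with vancomycin at ZT14, with a median of -0.52, and 12 of 15 at ZT2, with a median of -0.67, and 11 were lower at both times. The sums above are of uncentred signals. Divided by each array's 75th percentile, the ZT2 sums with vancomycin and saline were 31.8 and 77.1 for endothelium and smooth muscle. They were 21.2 and 43.8 for fat, 11.1 and 33.9 for erythroid and 37.9 and 38.5 for leukocyte markers. The part of these markers in the members' differences was not tested, and in RNA of whole kidney, fewer cells of a type and less RNA per cell cannot be told apart.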

How the data were processed

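Total RNA from kidney was labelled with Cy3 and hybridized to single-colour Agilent arrays, per the labels' protocols. Per the file headers, the deposited processed signal is an intensity, background-subtracted and detrended by Feature Extraction 10.7.1.1; the submitters' processing notes name 9.5.1.1. The deposited series table holds the authors' intensity values on a linear scale, used as an alternative.

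The deposited intensity was converted to log2 and the array's 75th percentile subtracted. Spots with outlier flags were dropped and repeated spots of a probe were averaged. Probes entered where 50% or more of their spots passed the scanner's background flag on any array. A gene took its brightest probe, which left 24638 genes. Where a value was dim on 1 of 2 arrays, the higher of its own signal and the lowest signal above background on that array was used. The difference is a bound only where that lowest signal was used. Differences have a size rule of 2-fold and no test. limma 3.58.1 (R 4.3.3) fitted treatment and injection time, with Benjamini-Hochberg adjustment over all genes, and was tested on simulated data.

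The named genes are the 10 members; from each list and comparison, up to 4 genes with the largest differences; and the 5 genes nearest the members' mean profile. Members and lists were chosen with earlier results of these data known. Promoters come from a RefSeq table (GRCm38.p6), and probe positions are those of the files (mm9). Arrays give no read depth, and 1 array per group limits the precision.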

Additional observations from a re-analysis of the deposited data

Results flagged for a closer look

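With 1 array per group, a vancomycin effect at a single injection time is a difference of 2 arrays, and the difference between the effects at the 2 times leaves no residual degree of freedom and was not tested. Fos moved in opposite directions at the 2 times, with 1.61 at ZT14 and -0.79 at ZT2 on the log2 scale, so that the ZT14 effect minus the ZT2 effect was 2.40. Nr4a1 was at 1.01 at ZT14 and -0.15 at ZT2, and the ZT2 value was smaller than its scanner error of 0.20. The other Btg2 probe was at -0.89 at ZT14 and 1.05 at ZT2, while the brightest Btg2 probe was near 0 at both times. Over all 22250 genes with both values, 42.7% had opposite signs at the 2 times and 4.09% had a ZT14 effect higher by 1 log2 unit or more.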

How the results depend on the processing

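Of 100 recomputed counts and medians, 81 held and 19 moved, and of 270 values of single members 206 held, 64 moved and 9 changed sign, 0 of them 2-fold or more to begin with. Many of the values that held could not have moved. The filters on dim probes kept the same probe for nearly all members, and the mean over probes changes nothing for a member with a single usable probe. The authors' values also nearly repeated quantile normalization. The number that held is therefore no measure of robustness. With normexp correction, 0 members were 2-fold lower at ZT2, 0 were 2-fold higher at ZT14 and 0 were 2-fold lower over time with saline, the median at ZT2 was 0.060 and over time with vancomycin -0.14, and 1 member passed limma's adjusted p for time. Normexp compresses dim signals, and the share of all genes past 2-fold fell to 1.55% at ZT14 and 2.07% at ZT2. The median over time with vancomycin was 0.03 and became -0.090 when centred on the median, -0.069 with quantile normalization and -0.069 with the authors' values. With saline it was -0.29 and became -0.40, -0.37 and -0.37. Keeping only probes above background on all 4 arrays leaves out Egr2, and gave 0 members lower at ZT2, 1 lower over time with saline, and medians of 0.061 at ZT2 and 0.25 over time with vancomycin. The mean over probes gave medians of -0.033 at ZT14, -0.16 at ZT2 and -0.20 over time with saline, and turned the sign of Ier2 to -0.54 at ZT14 and -0.33 at ZT2, of Btg2 to -0.40 at ZT14 and 0.20 over time with saline, and of Junb to -0.13 over time with saline. For Ier2 that mean includes the dim probe on AK032692. Normexp turned Egr1 to 0.019 and Ier2 to -0.025 at ZT14, and Fosb to 0.054 at ZT2 and -0.11 over time with vancomycin. For time, limma called 0 of all genes, but 1636 with the stricter filter and 1332 with no treatment term; the cause was not tested. No paired analysis by replicate number was possible because each group has 1 array and the labels carry no such numbers; limma's injection time term already sets vancomycin against saline within each time, and without it 0 members passed as well. Leaving out an array leaves no residual degree of freedom, so no such value is given.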
